A study of Drosophila melanogaster with 12 samples.

Results

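Which RNAs of a normal young Drosophila ovary were found with polysomes was asked by comparing RNA from pooled polysome fractions with RNA from the whole lysate. The comparison used the 4 libraries of the young control, 2 input and 2 polysome, out of 12 in the series, and covered all 17023 genes of the count tables. The young control, YWT, was UAS-Dcr2;nosGAL4 females whose ovaries were dissected within 2 hours of eclosion. It carries the germline driver nosGAL4 and a Dcr-2 transgene but no RNAi target, and each library came from pooled animals. The other 8 libraries were input and polysome pairs from Nop60B RNAi ovaries, in which the same driver depleted a pseudouridine synthase in the germline, and from the cyst control, bam RNAi;hs-bam ovaries that were heat-shocked to release cysts. They enter here only as a comparison with the young control. For each library pair 20% of the lysate was kept as input, and the remainder was spun through 10 to 45% sucrose with cycloheximide at 35000 x g for 3 hours.

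A polysome is an mRNA carrying several translating ribosomes, and its speed in a sucrose gradient rises with the number of ribosomes it holds. RNAs without a reading frame, stored mRNAs and mRNAs too short to seat several ribosomes stay nearer the top of the gradient with single ribosomes, ribosomal subunits and free ribonucleoproteins. In the ovary many maternal mRNAs are transported and stored by the germline before they are translated, so polysome association and mRNA level can part company. No added standard RNA was used, so each value below is enrichment relative to the other mRNAs of the same library and not an absolute share of ribosome-bound molecules.

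The 2 young control input libraries held 8902787 and 8505612 counts and the 2 polysome libraries 16946583 and 21626125, within a series range of 2780781 to 21626125, so the polysomes were the deeper side. Over the 8493 genes tested, log CPM (counts scaled to library size with TMM factors) correlated at r = 0.981 between the inputs and at r = 0.948 between the polysomes, across genes that are not independent replicates. The summed CPM of 10 germline markers, including osk, nanos, bam and Dcr-2, was 3842 and 3497 in the inputs and 2474 and 3745 in the polysomes. Dcr-2 is also carried as a transgene here, and vas was listed but not matched. That of 10 follicle and escort cell markers was 415 and 438 against 713 and 434. By these sums polysome library 1 held fewer germline and more follicle and escort cell marker counts than the other 3 libraries. Its muscle marker sum of 4023 CPM was level with the 4024 CPM of polysome library 2. A sum is set mostly by its most abundant members. Per gene, the median log2 ratio of polysome to input for the germline markers was close in the 2 pairs of equal number, at -0.22 and -0.17. For the follicle and escort cell markers it was 0.54 and -0.35. In bulk ovaries fewer cells of a type and less RNA per cell cannot be told apart, and the part of this difference in the results was not tested. Nop60B, the gene targeted in the RNAi ovaries, was at 1400 and 1550 CPM of library total in the young control inputs. It was at 439 and 483 in the Nop60B RNAi inputs. In the cyst control, whose RNAi targets bam and not Nop60B, the inputs were at 324 and 800, and input 1 lay below both RNAi inputs. The part of cell makeup in these levels was not tested. The 37 mitochondrially encoded genes had 0 counts in every library, and the replication-dependent histone genes together had at most 63 in any library, so neither group could be described.

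The test across all genes separated few of them. Relative to input, 17 genes were lower in polysomes and 0 were higher at an adjusted p under 0.05 and a difference of at least 2-fold (edgeR quasi-likelihood test on the 4 libraries). That is 0.2% of the genes tested in the lower and 0% in the higher direction. The 17 were 7 noncoding RNAs, 5 mRNAs of cytoplasmic ribosomal proteins, 4 other mRNAs and 1 gene without a name in the annotation used (FBgn0025286). In all 17 the polysome and input libraries did not overlap, which also held for 2121 genes in the lower and 1931 in the higher direction among all genes tested. The study's methods use a p under 0.05 and 2-fold for polysome association, analyzed with RIVET and compared between genotypes. With an unadjusted p under 0.05 from the edgeR test here and the same fold, the unadjusted rule, 189 genes (2.23%) were lower and 9 (0.106%) higher. Without TMM factors that split was 91 lower and 42 higher. At an unadjusted p under 0.05 with no fold, 1142 genes differed, 408 of them higher. DESeq2's Wald test called 109 lower and 2 higher. The calls rest on the spread within this genotype: in a fit of all 12 libraries 0 genes were called while 119 lower and 3 higher passed the unadjusted rule. With the lysate number as a block, since the methods take both fractions from 1 lysate, 67 genes were lower and 2 higher, all of the 17 among them. Leaving out 1 library gave 12 lower without input 1, 9 without input 2, 210 without polysome 1 and 649 without polysome 2. In each of these fits the lone library was assumed to vary like the 2 of the other fraction, and the inputs were the closer pair. The plot of differences against abundance shows the called noncoding RNAs far below the cloud and the ribosomal protein mRNAs as a separate group at its abundant end.

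**Figure D1:**
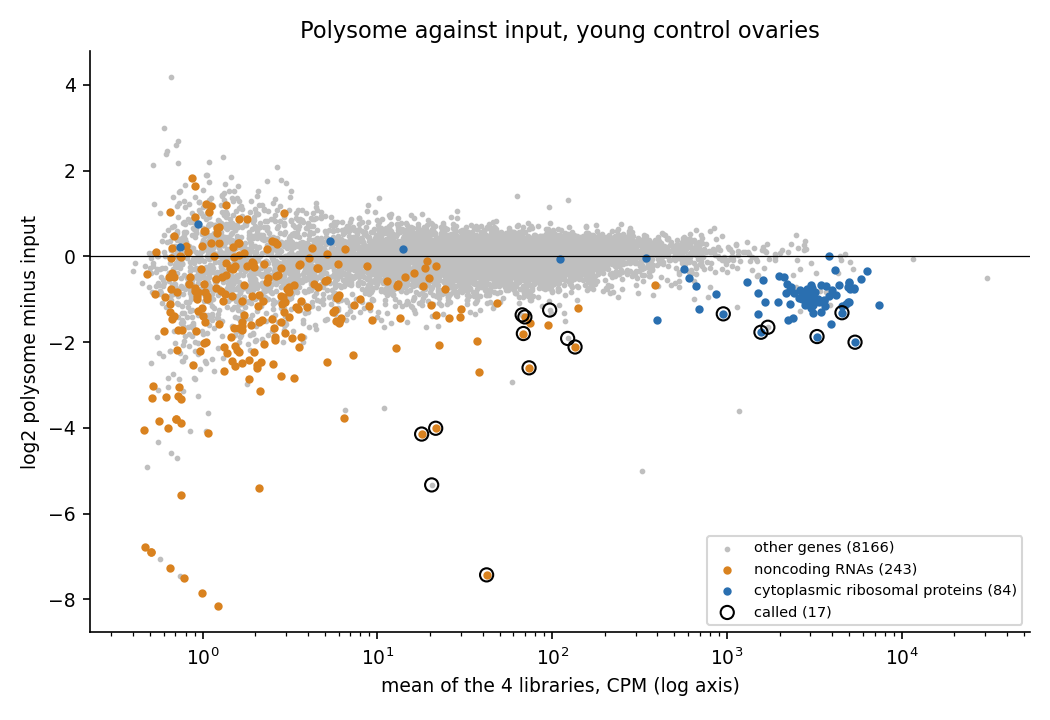
Log2 difference between polysome and input (vertical axis) against the mean of the 4 young control libraries in CPM (horizontal log axis) for the 8493 genes tested. Noncoding RNAs are orange, cytoplasmic ribosomal protein mRNAs blue, other genes grey, and circles mark the 17 called genes, of which RNaseMRP:RNA lies lowest at -7.43.

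**Figure D2:**
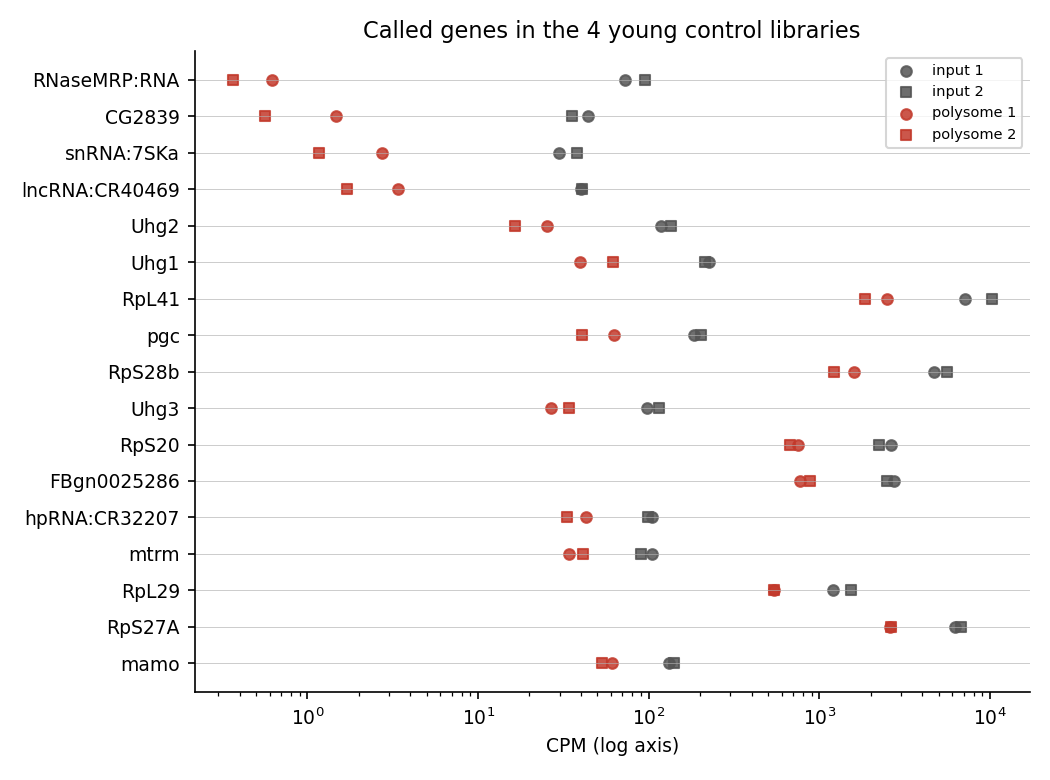
CPM (horizontal log axis) of the 17 called genes in each young control library, ordered by their log2 difference. Input libraries are grey and polysome libraries red, circles stand for replicate 1 and squares for replicate 2, and in each row both polysome values lie left of both input values.

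The 3 called noncoding RNAs with the largest depletion were RNaseMRP:RNA, snRNA:7SKa and lncRNA:CR40469. RNaseMRP:RNA, the RNA subunit of the nuclease that cleaves precursor ribosomal RNA, was at 72.0 and 95.6 CPM in the inputs and at 0.624 and 0.364 CPM in the polysomes. These values rest on 598 and 732 counts in the inputs and on 11 and 9 counts in the deeper polysome libraries. The difference was -7.43 on the log2 scale (SE 0.32, adjusted p = 3.47e-04), a 173-fold depletion and the largest among the called genes. snRNA:7SKa, the RNA that holds the elongation factor P-TEFb inactive, was at 29.6 and 38.1 CPM in the inputs and 2.72 and 1.17 CPM in the polysomes (log2 difference -4.15, SE 0.42, adjusted p = 0.0211). RNaseP:RNA, the sister RNA that processes tRNA precursors, had 82 and 110 counts in the inputs and 1 and 40 in the polysomes, and with that spread it was not called (log2 difference -3.78, SE 0.99, adjusted p = 0.181; 0.0246 with the lysate as a block). lncRNA:CR40469, a short RNA of unknown role, was at 40.2 and 40.9 CPM in the inputs and 3.40 and 1.70 CPM in the polysomes (log2 difference -4.01, SE 0.35, adjusted p = 0.0171). The libraries were poly(A)-selected, so the counts describe only the molecules that the selection kept.

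The sequences of the 3 called RNAs not made as host or hairpin precursors are given because they show what the depleted molecules can encode. They were read from the release 6 (dm6) assembly, 5′ to 3′, with the longest frame from ATG to a stop codon in capitals. RNaseMRP:RNA lies at chr3R:23730048-23730429 on the minus strand, is 382 bases long and holds a longest frame of 40 codons. snRNA:7SKa lies at chr3R:7474553-7474996 on the minus strand, is 444 bases long and holds a longest frame of 58 codons. For both the first 300 bases are shown and the frame runs on past them. lncRNA:CR40469 lies at chrX:122493-122706 on the plus strand, is 214 bases long and holds a longest frame of 33 codons.
RNaseMRP:RNA: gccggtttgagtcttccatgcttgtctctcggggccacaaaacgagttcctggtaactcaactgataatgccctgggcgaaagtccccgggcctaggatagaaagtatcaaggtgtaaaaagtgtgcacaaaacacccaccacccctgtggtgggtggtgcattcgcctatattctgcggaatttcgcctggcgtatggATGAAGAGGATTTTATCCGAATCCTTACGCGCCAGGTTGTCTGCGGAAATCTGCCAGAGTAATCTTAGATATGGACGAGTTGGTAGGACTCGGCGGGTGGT
snRNA:7SKa: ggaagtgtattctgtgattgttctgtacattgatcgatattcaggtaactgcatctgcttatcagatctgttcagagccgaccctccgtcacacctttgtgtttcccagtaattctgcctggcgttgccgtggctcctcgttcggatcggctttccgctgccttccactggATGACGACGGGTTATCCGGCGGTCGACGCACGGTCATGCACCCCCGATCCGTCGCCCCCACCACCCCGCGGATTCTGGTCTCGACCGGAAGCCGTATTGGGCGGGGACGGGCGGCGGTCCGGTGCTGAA
lncRNA:CR40469: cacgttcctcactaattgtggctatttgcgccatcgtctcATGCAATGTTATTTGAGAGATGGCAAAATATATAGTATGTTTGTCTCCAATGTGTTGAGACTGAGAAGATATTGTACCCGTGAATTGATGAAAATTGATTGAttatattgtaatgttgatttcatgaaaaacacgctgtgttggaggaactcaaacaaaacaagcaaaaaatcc

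The snoRNA host genes gave 3 of the 7 noncoding calls. These genes carry small nucleolar RNAs, which guide ribosomal RNA modification, in their introns, and their spliced exons have no known protein product. Of the 7 measured Uhg genes 3 were called lower, 6 passed the unadjusted rule and all 7 lay below 0. Of all genes tested, 0.2%, 2.23% and 50.5% did so in this order. The median log2 difference was -1.98 beside -0.01 over all genes tested. Uhg1 was at 226 and 213 CPM in the inputs and at 39.4 and 61.9 CPM in the polysomes (log2 difference -2.12, SE 0.23, adjusted p = 0.0230). Uhg2 went from 118 and 135 CPM to 25.4 and 16.4 CPM (log2 difference -2.60, SE 0.24, adjusted p = 0.0171), and Uhg3 from 98.1 and 115 CPM to 26.8 and 34.1 CPM (log2 difference -1.80, SE 0.19, adjusted p = 0.0215). Uhg4 had the lowest fitted value of the group at -2.69 but its polysome libraries, at 3.86 and 16.2 CPM, differed from each other and it was not called (adjusted p = 0.123; 0.00506 with the lysate block, under which Uhg5 and Uhg8 also passed at 0.0201 and 0.0027). The reads of a host exon and of a snoRNA on the same strand can overlap in the annotation, so the host values may hold some counts that belong to snoRNA precursors.

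The snoRNAs themselves were sparse. Of 258 snoRNA genes 67 passed the filter on low counts, and 36 of these passed through the inputs alone and so had to come out lower. Of the 23 with counts above the filter in both fractions, 22 lay below 0 with a median of -1.22, beside 3787 of 7740 genes below 0 with a median of 0.01 for all genes that passed in both. The adjusted test called 0 of the 67 and the unadjusted rule took 24 as lower, beside 0.2% and 2.23% of all genes tested. Both counts run over all 67, the 36 bound to be lower included. snoRNA:Psi18S-531, which guides pseudouridylation of 18S ribosomal RNA, was the most abundant in the input at 32.4 and 30.2 CPM in the inputs and 11.5 and 12.9 CPM in the polysomes (log2 difference -1.36, adjusted p = 0.063; 0.0309 with the lysate block). In the introns of Uhg2, snoRNA:Me18S-G1620 had 26 and 39 counts in the inputs against 0 and 4 in the polysomes, while snoRNA:U14:30Ea had 16 and 35 against 0 and 21, and snoRNA:U14:30Eb had 18 and 22 against 0 and 22. Polysome library 2 thus held reads of both U14 copies where library 1 held none.

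These 3 snoRNAs are shown, from release 6 and 5′ to 3′, as the box C/D RNAs that the Uhg2 introns carry. Capitals mark TGATGA, searched on the RNA strand in the first 25 bases, and CTGA, searched in the last 25 bases, the letters of box C and box D. Both were found in 81 of 258 snoRNA genes (31.4%), the others including RNAs of the H/ACA type that lack these boxes. The coordinates are chr2L:9894477-9894544, chr2L:9894205-9894285 and chr2L:9893946-9894026 in this order, all on the minus strand.
snoRNA:Me18S-G1620: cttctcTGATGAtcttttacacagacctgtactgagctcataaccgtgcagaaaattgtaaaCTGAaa
snoRNA:U14:30Ea: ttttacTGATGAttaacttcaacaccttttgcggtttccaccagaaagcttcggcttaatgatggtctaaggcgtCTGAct
snoRNA:U14:30Eb: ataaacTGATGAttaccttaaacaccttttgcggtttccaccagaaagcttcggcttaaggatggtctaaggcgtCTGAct

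Long noncoding RNAs gave 1 call. Of 126 tested, lncRNA:CR40469 was called lower, beside 0.2% of all genes tested, and the median was -0.78. The unadjusted rule took 20 in the lower and 0 in the higher direction, beside 2.23% and 0.106% of all genes tested. Of the 126, 42 passed the filter through the inputs alone and so had to come out lower. Among the 59 with counts above the filter in both fractions 50 lay below 0 and the median was -0.58. For all genes that passed in both fractions, 3787 of 7740 lay below 0 with a median of 0.01. lncRNA:Hsromega, the heat-shock RNA that gathers nuclear omega speckles, was at 158 and 233 CPM in the inputs and 66.3 and 104 CPM in the polysomes (log2 difference -1.20, adjusted p = 0.141; 0.00926 with the lysate block). lncRNA:CR45102 was at 41.7 and 31.2 CPM against 7.09 and 10.3 CPM (log2 difference -2.06, adjusted p = 0.053; 0.00591 with the block). Others had similar values in both fractions: asRNA:CR42254 was at 23.7 and 23.0 CPM in the inputs and 21.0 and 18.9 CPM in the polysomes, and lncRNA:CR44042 at 19.9 and 20.1 CPM against 22.9 and 14.4 CPM. By the longest frame from ATG to stop, and over members that include those passing the filter through the inputs alone, the median was -0.82 for 46 long noncoding and antisense RNAs with up to 50 codons, -0.91 for 78 with 51 to 100 codons and -0.66 for 39 with more. Hairpin RNAs, precursors of endogenous small interfering RNAs, gave 1 call. hpRNA:CR32207 was called, from 105 and 98.3 CPM to 43.0 and 33.2 CPM (log2 difference -1.41, SE 0.18, adjusted p = 0.0445), and hpRNA:CR33940 went from 118 and 106 CPM to 50.4 and 25.9 CPM and was not called (log2 difference -1.56, adjusted p = 0.108; 0.00507 with the block). hpRNA:CR32207 overlaps CR42842 on the opposite strand. Over all noncoding classes 7 of 243 tested were called lower, and 21 with the lysate block, beside 17 and 67 of all 8493 genes tested. Of the 243, 93 passed the filter through the inputs alone and so had to come out lower. Among the 107 that passed in both fractions 92 lay below 0 and the median was -0.72.

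No RNA that was well represented in the input was missing from polysomes. Of 6436 genes with at least 10 CPM in the input, 0 had 3 or fewer counts in both polysome libraries, and the same 0 was found for 7001 genes with at least 5 CPM and with limits of 0 or 10 counts. Only near the detection limit did genes drop out. Of 8154 genes with at least 1 CPM in the input, 18 had no more than 3 counts in each polysome library, 8 of them snoRNAs, and none exceeded 2.24 CPM in the input. One was lncRNA:noe, with 16 and 8 counts in the inputs and 0 and 1 in the polysomes.

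mRNAs for cytoplasmic ribosomal proteins gave 5 of the 9 calls among protein-coding genes. These short, highly expressed mRNAs share a control element at their start that couples their translation to growth signals through the Tor kinase. Of 84 tested, 5 were called lower, 33 passed the unadjusted rule and 0 were higher, 80 lay below 0, and the median log2 difference was -0.88 with an interquartile range of -1.12 to -0.68. In 77 of the 84 the polysome values lay below both inputs, beside 2121 of all 8493 genes tested. Of all genes tested, 0.2% were called lower, 2.23% passed the unadjusted rule in the lower direction and 50.5% lay below 0. As a share of counts these genes took 29.0% and 29.6% of the inputs and 19.7% and 17.1% of the polysomes. The list is incomplete: RpL19, RpL27A, RpL31, RpS12 and RpS10b were not matched to an ID of the count tables, and the 376 unnamed IDs held 8.01% and 7.88% of the input and 6.80% and 6.35% of the polysome counts, so these shares and counts are partial. Per pair of equal number the median was -0.68 and -1.13. The count of called members is sensitive to the libraries used: it was 2 without input 1, 1 without input 2, 51 without polysome 1, 15 without polysome 2, 14 with the lysate block and 32 by DESeq2's Wald test, and 0 in the fit of 12 libraries, where the median was -0.87.

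RpL41, which encodes the smallest protein of the large subunit in 78 coding nucleotides, was at 7077 and 10218 CPM in the inputs and 2478 and 1836 CPM in the polysomes (log2 difference -2.0, SE 0.24, adjusted p = 0.0385). RpS28b, with 198 coding nucleotides, was at 4666 and 5620 CPM against 1594 and 1217 CPM (log2 difference -1.87, SE 0.20, adjusted p = 0.0230). RpS20 was at 2613 and 2226 CPM against 749 and 669 CPM (log2 difference -1.77, SE 0.17, adjusted p = 0.0199). RpL29 was at 1203 and 1530 CPM against 540 and 538 CPM (log2 difference -1.34, SE 0.17, adjusted p = 0.0445). RpS27A, whose product is made as a fusion to ubiquitin, was at 6227 and 6748 CPM against 2603 and 2609 CPM (log2 difference -1.32, SE 0.16, adjusted p = 0.0360). In each of the 5 both polysome values lay below both inputs. RpS20 overlaps 2 snoRNAs on its own strand and CG17272 on the other, so some of its counts may belong to them. RpS29, with 171 coding nucleotides, had a difference of -1.59 and RpL39, with 156, one of -1.48, but neither was called (adjusted p = 0.0684 and 0.0630; 0.0136 and 0.00506 with the lysate block). sta, the most abundant member in the input at 10449 and 9839 CPM, stood at 4768 and 4476 CPM in the polysomes (log2 difference -1.13, adjusted p = 0.053). RpL3, the longest frame of the list at 1251 nucleotides, was at 4121 and 3599 CPM against 3974 and 3735 CPM, a log2 difference of -0.002 (SE 0.16).

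Within the list the difference followed coding length. Over the 84 genes, which share libraries and abundance class, Pearson's r between log2 coding length and the log2 difference was 0.598 and Spearman's rho 0.637. The 11 members with up to 300 coding nucleotides had a median of -1.45, the 47 with 300 to 600 one of -0.97 and the 26 above 600 one of -0.70. Other mRNAs of the same coding lengths had medians nearer 0. The 195 other genes with up to 300 coding nucleotides had a median of -0.18, and the 866 with 300 to 600 and the 1414 with 600 to 1000 both had medians of 0.06. The 4 members above 0 were RpL37-2, RpS10a, RpS19b and RpL22-like, paralogs with low counts here. Paralogs of near-identical sequence can exchange reads in the counting, so their values are less certain than those of single-copy members.

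**Figure D3:**
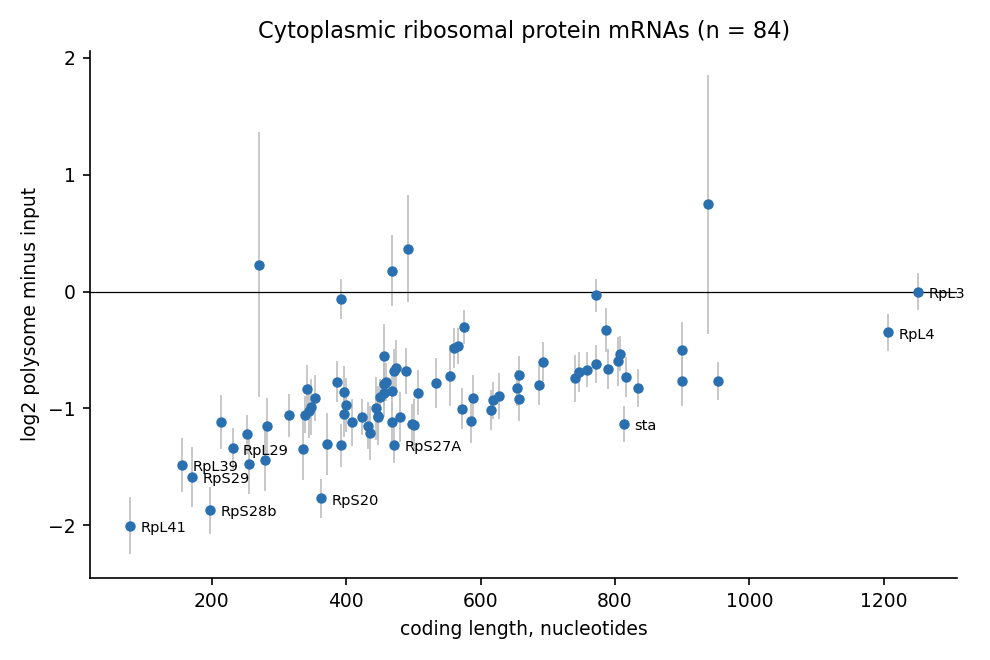
Log2 difference between polysome and input (vertical axis, bars give 1 SE) against the coding length of the longest isoform in nucleotides for the 84 cytoplasmic ribosomal protein mRNAs tested. RpL41 at 78 nucleotides lies lowest at -2.0 and RpL3 at 1251 nucleotides lies at 0.

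The reading frames of 2 of these mRNAs are shown because their shortness is the feature that the length comparison turns on. RpS28b lies at chrX:9554623-9555661 and RpS29 at chr3R:9778042-9779528, both on the plus strand of release 6, and each line is the spliced coding sequence with its start and stop codons in capitals.
RpS28b: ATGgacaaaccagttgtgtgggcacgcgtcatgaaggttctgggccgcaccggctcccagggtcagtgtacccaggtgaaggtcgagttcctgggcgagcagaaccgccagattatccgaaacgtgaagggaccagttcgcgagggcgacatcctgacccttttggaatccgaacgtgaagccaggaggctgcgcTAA
RpS29: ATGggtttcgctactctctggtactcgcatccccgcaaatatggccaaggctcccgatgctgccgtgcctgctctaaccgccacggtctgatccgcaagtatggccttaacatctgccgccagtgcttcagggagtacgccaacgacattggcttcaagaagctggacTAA

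Other genes of the translation machinery had medians near 0. Of 72 mitochondrial ribosomal protein mRNAs, translated in the cytoplasm for import, 0 were called by either rule and the median was 0.18, with 57 above 0. Over all genes tested 4201 of 8493 lay above 0. Of 42 translation factors 0 were called by either rule and the median was -0.07. This list is incomplete too, since eIF5A, eEF1alpha1 and eEF5 were not matched to an ID of the count tables. eEF2, the translocation factor and the most abundant of the 42 in the input, was at 11390 and 12269 CPM against 10918 and 11642 CPM (log2 difference -0.07, SE 0.16). The lowest was eIF4B, a cofactor of the eIF4A helicase, at 1.69 and 31.3 CPM in inputs that were far apart and 3.18 and 7.32 CPM in the polysomes (log2 difference -1.64, adjusted p = 0.536). pAbp, the poly(A)-binding protein, was at 4334 and 4367 CPM in the inputs against 3271 and 1714 CPM (log2 difference -0.80, adjusted p = 0.306). eIF3c, a subunit of the scaffold that loads mRNA on the small subunit, was at 772 and 792 CPM against 1165 and 1008 CPM (log2 difference 0.47, adjusted p = 0.272). The 47 genes of the ribosome biogenesis list, which also holds peb, pes and Rrp1 with other roles, had a median of 0.11 and 0 calls by either rule. Among them Nop60B was at 1502 and 1722 CPM against 1861 and 1580 CPM (log2 difference 0.09, SE 0.17). The 34 proteasome subunits, 22 aminoacyl-tRNA synthetase and AIMP cofactor genes and 68 nuclear respiratory chain and ATP synthase genes had medians of 0.22, 0.17 and 0.13, with 31, 16 and 52 members above 0 and 0 called by either rule. ND-30, a complex I subunit with the largest value among the last, had a value above both inputs in both polysomes (log2 difference 0.73, adjusted p = 0.143).

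**Figure D4:**
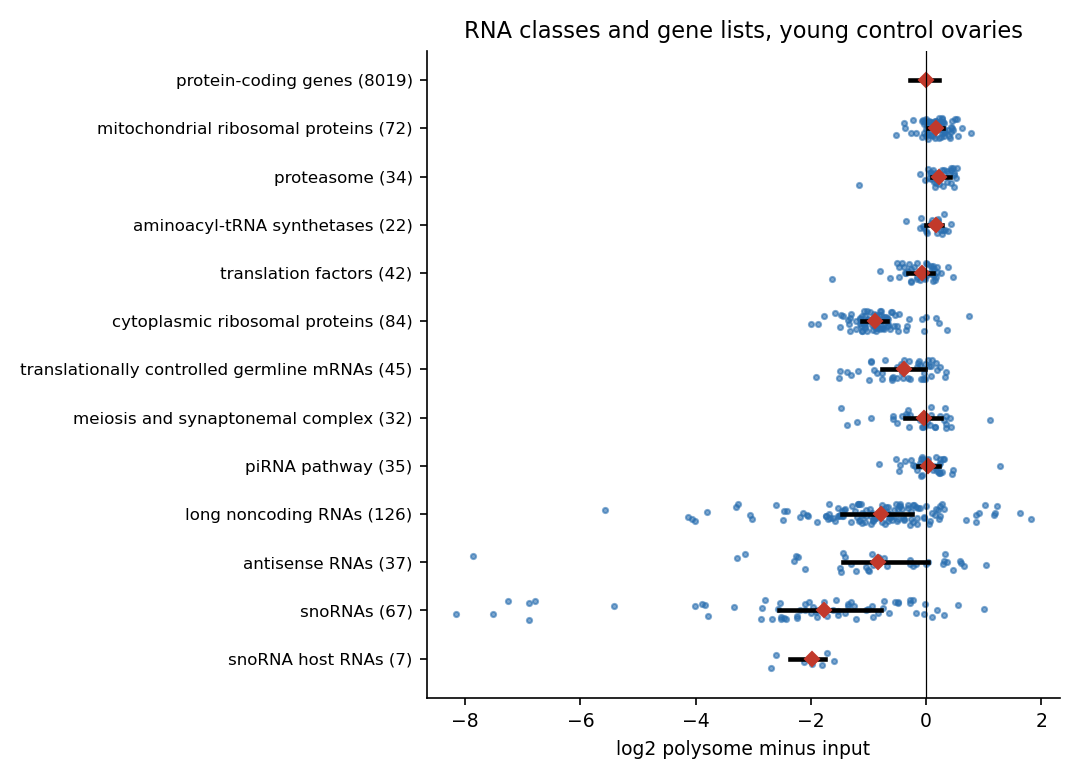
Log2 difference between polysome and input (horizontal axis) for RNA classes and gene lists, with the number of genes tested in brackets. Blue points are genes (not drawn for all protein-coding genes), red diamonds medians and black bars interquartile ranges, and the medians run from 0.22 for the proteasome to -1.98 for snoRNA host RNAs.

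A list of germline mRNAs known for storage or translational control, which also holds genes for regulators and localization factors such as me31B, cup, tral, exu and stau, gave 2 calls. Of 45 tested, 2 were called lower, 5 passed the unadjusted rule and 0 were higher, 35 lay below 0 and the median was -0.39. Over all genes tested 0.2% were called lower, 2.23% passed the unadjusted rule in the lower direction and 50.5% lay below 0. Their median was -0.01. pgc, whose small protein silences transcription in the future primordial germ cells, was at 185 and 203 CPM in the inputs and 62.4 and 40.5 CPM in the polysomes (log2 difference -1.92, SE 0.22, adjusted p = 0.0358). mtrm, an inhibitor of Polo kinase during meiosis, was at 105 and 89.5 CPM against 34.1 and 41.2 CPM (log2 difference -1.37, SE 0.18, adjusted p = 0.0445). For both genes both polysome values lay below both inputs, and pgc overlaps T3dh on the opposite strand. The next members missed the adjusted threshold. gnu, a subunit of the PNG kinase that starts translation at egg activation, was at 177 and 174 CPM against 47.4 and 75.5 CPM (log2 difference -1.51, adjusted p = 0.0605; 0.00506 with the lysate block). nanos, the posterior determinant, was at 53.9 and 42.4 CPM against 20.0 and 18.9 CPM (log2 difference -1.31, adjusted p = 0.0605; 0.0190 with the lysate block). osk, which assembles the germ plasm and is repressed until it reaches the posterior of the oocyte, was at 1783 and 1380 CPM against 563 and 841 CPM (log2 difference -1.17, adjusted p = 0.118). Polysome library 1, which had the lower germline marker sum, was the lower of the polysome libraries for osk, gnu and mtrm and the higher for pgc. The values of nanos were nearly level. The germline marker sum includes osk and nanos, so for these genes it is not a separate measure of that library's makeup. The part of that makeup in these values was not tested.

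Cyclin mRNAs were not called, with CycB at 1068 and 974 CPM against 435 and 617 CPM (log2 difference -0.96, adjusted p = 0.123) and CycA at 518 and 462 CPM against 224 and 301 CPM (log2 difference -0.90, adjusted p = 0.123), both lower in polysome library 1 than in library 2. Other members of the list differed little between fractions. grk, the EGF receptor ligand of the oocyte, was at 47.7 and 46.2 CPM against 39.9 and 46.8 CPM (log2 difference -0.11, SE 0.17). orb, the germline CPEB protein, was at 297 and 278 CPM against 296 and 226 CPM (log2 difference -0.14, SE 0.17), and me31B and tral, which encode repressors of stored mRNAs, both had a log2 difference of -0.02. The highest was exu, an RNA localization factor, at 127 and 118 CPM against 174 and 140 CPM (log2 difference 0.35, adjusted p = 0.407).

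The genes that the study follows in cyst differentiation were not called in either direction. Rbfox1, an RNA-binding regulator of cyst differentiation, was at 77.7 and 79.1 CPM in the inputs and 87.8 and 42.2 CPM in the polysomes (log2 difference -0.27, SE 0.31, adjusted p = 0.758). bru1, which encodes the translational repressor Bruno, was at 995 and 1089 CPM against 1091 and 594 CPM (log2 difference -0.31, SE 0.27, adjusted p = 0.675). For both genes polysome library 1 lay about level with the inputs and library 2 below them. c(3)G, a synaptonemal complex protein, was at 183 and 175 CPM against 129 and 154 CPM (log2 difference -0.34, adjusted p = 0.403), and cona, its partner, at 27.3 and 18 CPM against 28.2 and 32.6 CPM (log2 difference 0.42, adjusted p = 0.510). bam, the cystoblast differentiation factor, was at 37.7 and 35.3 CPM against 31.7 and 27.7 CPM (log2 difference -0.30, adjusted p = 0.527). Of 32 meiosis and synaptonemal complex genes 1 was called lower (mtrm) with a median of -0.03, and of 35 piRNA pathway genes 0 were called by either rule with a median of 0.04.

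CG2839 had the largest depletion among the called mRNAs. It was at 44.2 and 35.5 CPM in the inputs and 1.47 and 0.566 CPM in the polysomes, from 367 and 272 counts against 26 and 14 (log2 difference -5.33, SE 0.43, adjusted p = 0.0157). It is annotated as protein-coding with a frame of 2481 nucleotides at chr2L:625652-628200, and no gene overlaps it in the annotation. mamo, a zinc finger transcription factor needed in the germline, was at 132 and 140 CPM against 61.2 and 53.1 CPM (log2 difference -1.25, SE 0.15, adjusted p = 0.0411), and it overlaps CG11068 on the opposite strand. FBgn0025286 was at 2728 and 2472 CPM against 770 and 881 CPM (log2 difference -1.65, SE 0.16, adjusted p = 0.0211). The annotation used does not name it, so whether it is one of the unmatched ribosomal protein genes is not known here. Just past the adjusted threshold, and so not called, were bt and sls, named after their values were seen, which encode giant muscle proteins with the longest frames named here, 26802 and 55407 nucleotides. bt was at 140 and 193 CPM against 64.1 and 69.6 CPM (log2 difference -1.31, adjusted p = 0.0605, and 0.00747 with the lysate block). sls was at 58.6 and 69.7 CPM against 29.7 and 25.9 CPM (log2 difference -1.21, adjusted p = 0.0605, and 0.0218 with the lysate block). The 4 muscle markers, Mhc, Mlc1, up and Act57B, had a median of 0.01. The part of cell makeup or of frame length in the bt and sls values was not tested. A pseudogene of 18S ribosomal RNA, 18SrRNA-Psi:CR41602, was at 190 and 1069 CPM in the inputs and 25.5 and 13.7 CPM in the polysomes, and its inputs were far from each other (adjusted p = 0.0684; 0.00506 with the lysate block).

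In the edgeR fit that gave the 17 calls, which has no lysate block, no gene reached the adjusted threshold in the higher direction. The genes named next were therefore chosen from the unadjusted rule after their values were seen. Of the 9, the most abundant were 2 vitelline membrane genes, which follicle cells express as the eggshell is laid down. Vm26Aa was at 37.5 and 31.5 CPM in the inputs and 119 and 64.1 CPM in the polysomes (log2 difference 1.41, SE 0.29, adjusted p = 0.123; 0.0136 with the lysate block). Vm26Ab was at 44.8 and 98.1 CPM against 176 and 177 CPM (log2 difference 1.31, SE 0.32, adjusted p = 0.164; 0.0245 with the lysate block). The summed CPM of the 8 late follicle cell markers, which include both genes, was 224 and 457 in the inputs and 544 and 765 in the polysomes, and the part of cell makeup in these values was not tested. The others with at least 10 CPM were Ada1-2, a subunit of the SAGA histone acetyltransferase complex, at 5.18 and 6.27 CPM against 18.5 and 11.0 CPM, and defl, an Integrator subunit, at 19.6 and 17.4 CPM against 50.5 and 26.2 CPM (log2 difference 1.36 and 1.05, adjusted p = 0.196 and 0.240). Among 16 genes with upstream frames or stress-dependent translation the median was -0.02. Thor, the 4E-BP that restrains cap-dependent translation, was at 67.0 and 87.5 CPM against 112 and 110 CPM (log2 difference 0.52, adjusted p = 0.282), and crc, the ATF4 homolog with upstream frames, was lower in both polysomes than in both inputs without a call (log2 difference -0.72, adjusted p = 0.193).

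Across the remaining coding genes the differences varied weakly with mRNA features. Without ribosomal protein genes, the median log2 difference was -0.18 for coding lengths of up to 300 nucleotides, 0.06 for coding lengths of 300 to 1000 nucleotides and -0.18 for 257 genes above 6000. It was 0.05 for 1538 genes with a 3′ untranslated region of up to 100 nucleotides and -0.25 for 454 with more than 1600. For 5′ untranslated regions it was 0.08 for 1712 genes with 50 to 100 nucleotides and -0.22 for 457 with more than 800. By total intron length it was 0.11 for 687 genes without introns and -0.26 for 253 with more than 40000 nucleotides. Across all these genes Pearson's r was -0.04 for coding length, -0.11 for the 3′ and -0.08 for the 5′ untranslated region and -0.12 for intron length, on log2 lengths of the annotation, while it was 0.13 for GC content and 0.16 for abundance. Among the 6300 coding genes with at least 10 CPM, ribosomal protein genes included, it was -0.04, -0.16, -0.13 and -0.19 for the 4 lengths in this order, 0.14 for GC content and -0.02 for abundance. The genes share libraries and these features vary together, so the values are given as a description.

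The same contrast in the other genotypes is set beside the young control for the called genes. Of the 17, all lay below 0 in Nop60B RNAi and 15 in the cyst control, beside 53.0% and 53.3% of all 8493 genes. RpS20 was at -1.75 in the young control, -1.11 in Nop60B RNAi and -1.63 in the cyst control on the log2 scale of the fit of 12 libraries, and Uhg2 at -2.58, -3.72 and -2.31. These genotypes differ in cell makeup and depth. The germline marker sum was 543 to 656 CPM in the Nop60B RNAi libraries, against 2474 to 3842 CPM in the young control. That sum includes Dcr-2, a transgene in the young control, and bam, the RNAi target of the cyst control. The cyst control polysomes held 2780781 and 13865679 counts, with germline sums of 614 and 2063 CPM and muscle sums of 16590 and 3154 CPM. The part of these differences in the values of each genotype was not tested. The values were farther apart for CG2839, at -5.28, -1.74 and -0.69, and for pgc, at -1.90, -0.31 and -0.14. None of these gaps passed the test of the difference: the interaction called 0 of 10035 genes against Nop60B RNAi and 0 against the cyst control at an adjusted p under 0.05, while the unadjusted rule took 56 lower and 266 higher in the first and 82 lower and 50 higher in the second. For CG2839 the differences were -3.53 and -4.59 (adjusted p = 1.00 for each). The median of the ribosomal protein list was -0.87 in the young control, -0.89 in Nop60B RNAi and -0.40 in the cyst control, and that of the snoRNA host genes -1.96, -2.69 and -1.82.

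**Figure D5:**
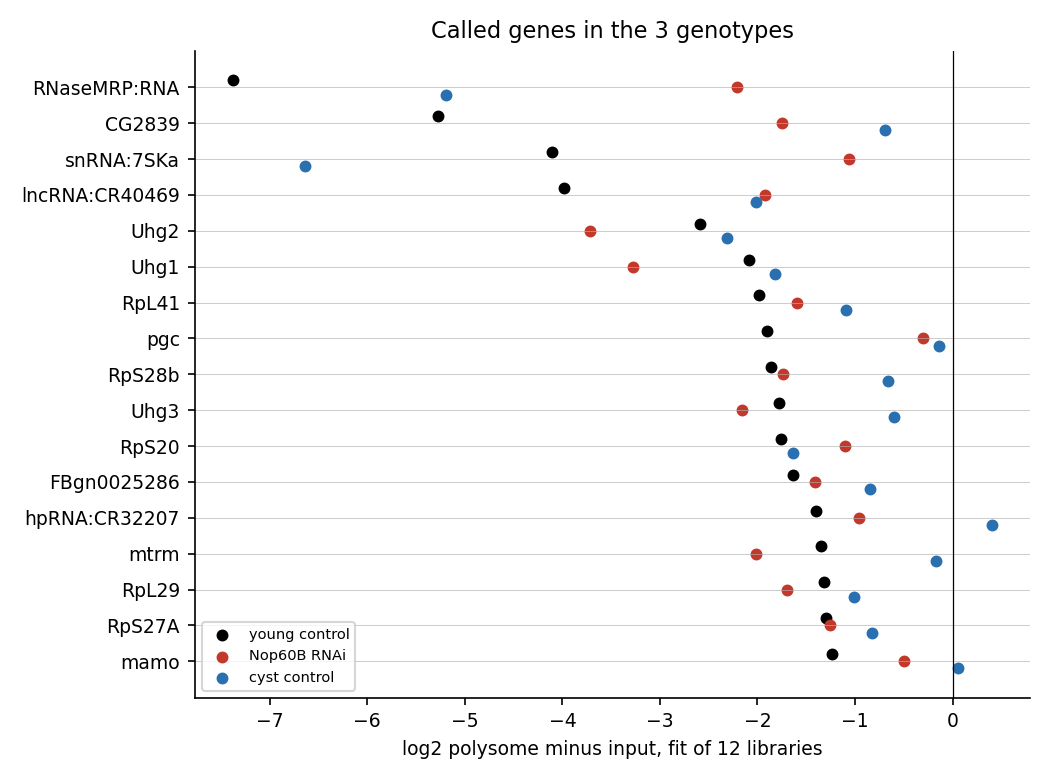
Log2 difference between polysome and input (horizontal axis) for the 17 genes called in the young control, in the young control (black), Nop60B RNAi (red) and the cyst control (blue), from the fit of all 12 libraries. Points left of 0 are lower in polysomes, which holds for all 17 genes in Nop60B RNAi and for 15 in the cyst control.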

How the data were processed

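The 12 libraries were poly(A)-selected RNA sequencing of ovary inputs and polysome fractions, 2 per group. The authors aligned reads to dm6 with HISAT2 2.1.0 and made raw counts per gene with featureCounts 1.4.6, and these deposited counts were used as they are. The libraries came from a directional kit, but the strand setting of the counting is not given in the sources used here, so reads of overlapping genes on opposite strands may not be separated. Gene names, classes, lengths and sequences came from the release 6 annotation and assembly, which named 16647 of 17023 gene IDs; 376 have no name here.

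The 4 young control libraries were filtered with filterByExpr, scaled by TMM and tested with edgeR 4.0.16 (quasi-likelihood F test, R 4.3.3), with Benjamini-Hochberg adjustment over the 8493 genes tested. A gene was called at an adjusted p under 0.05 and a log2 difference of at least 1. CPM values include the TMM factors except where library totals are named. DESeq2 1.42.0, other scalings, filters and libraries were alternatives. Differences between genotypes were interactions in a fit of all 12 libraries. The study's methods take input and polysomes from 1 lysate and the labels number both fractions 1 and 2, so the number was also fitted as a block, the lysate block. The deviations of replicate 1 from replicate 2 correlated at r = 0.06 between the fractions. The scripts were tested on simulated data. The labels do not say whether replicates came from separate collections of animals, so p-values measure the spread between these libraries only. With 2 libraries per fraction no test that permutes libraries can reach the threshold.

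Named genes were up to 10 coding and 8 noncoding genes per direction with the largest difference among those called and a mean of at least 10 CPM, list members with the largest difference among those called or the highest input, members with known translational control, and the genes the study follows. Others were chosen after their values were seen. The members and lists were chosen with earlier results of these data known. The list of ribosomal proteins was corrected by 2 symbols and nanos was matched by its current symbol after the data were seen.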

Additional observations from a re-analysis of the deposited data

How the results depend on the processing

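The number of genes called lower, 17 in the young control fit, was 0 in the fit of all 12 libraries, 109 by DESeq2's Wald test, 123 without a filter on low counts, 42 with a minimum of 10 CPM, 67 with the replicate block and 189 with the unadjusted p; leaving out 1 library gave 9 to 649. The number called higher, 0 by edgeR, was 2 by DESeq2's Wald test, 4 without a filter, 2 with the replicate block, 9 with the unadjusted p and 0 to 126 with 1 library left out. All 17 genes were again called under every scaling but 2, 12 with DESeq2's size factors and 14 with library totals, and under DESeq2's Wald test, both filters and the replicate block. Without input 1 and input 2, 9 and 7 of the 17 were called. Each fit without 1 library takes the spread of that fraction from the other, so the counts without a polysome library rest on the 2 closely matched inputs. For ribosomal proteins the count of 5 was 0 with 12 libraries, 3 with DESeq2's size factors, 9 with upper-quartile factors, 32 by DESeq2's Wald test, 34 without a filter, 14 with 10 CPM, 14 with the replicate block, 33 with the unadjusted p, and 1 to 51 with 1 library left out. For noncoding RNAs the count of 7 was 0 with 12 libraries, 26 by DESeq2's Wald test, 28 without a filter, 21 with the replicate block, 62 with the unadjusted p and 5 to 104 with 1 library left out. The noncoding median of -1.04, over members of which 93 passed the filter through the inputs alone, was -0.76 with library totals, -1.75 without a filter, -1.37 with 10 CPM, -1.32 with the replicate block and -0.74 to -1.30 with 1 library left out. Fewer or more genes tested change the noncoding median by construction, and the other causes were not tested. Library totals in place of TMM moved the median of all genes by 0.25 and the ribosomal protein median to -0.64. Across the other settings and libraries left out the ribosomal protein median was between -1.12 and -0.73. Pearson's r of coding length over all coding genes was -0.012, 0.0249 with the shortest isoform and -0.0402 with 10 CPM. The interactions called 0 genes also with each lysate as a replicate block, and no named gene that was called changed direction under any setting.

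Values with the replicate block stand beside the results whose call it changed, and no named gene that was called without it lost its call. Depth limits genes near or below 1 CPM, where a few counts set a fitted difference, and genes with 0 counts in a polysome library have fitted values that depend on the prior count.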
